A study of Homo sapiens with 12 samples.

Results

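The subject was the set of m6A peak intervals that lie on SESN2, SESN1, SESN3 and FTO, the 3 sestrin genes and the gene of an RNA demethylase. SESN2 and FTO are the genes in the title of the series. Members were all intervals of 6 deposited peak lists that overlapped a fixed hg19 locus of each gene by 1 bp or more, on the gene's strand. SESN2 was taken as chr1:28586038-28609002 (plus strand), SESN1 as chr6:109307640-109416022 (minus), SESN3 as chr11:94898703-94965705 (minus) and FTO as chr16:53737875-54148379 (plus). The rule used positions only, and found 14 of 53502 intervals: 5 on SESN2, 1 on SESN1, 1 on SESN3 and 7 on FTO.

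The cells were wild-type H460, an established line from a human large cell lung cancer. Per the labels, 3 replicates were given 100 nM rapamycin, an inhibitor of the kinase complex mTORC1 used here to induce autophagy, for 24 h, and 3 were left untreated. Each of these gave an input library and an immunoprecipitated (IP) library in which RNA fragments carrying N6-methyladenosine (m6A) are enriched with an antibody, 12 libraries in all. The series asked which transcripts change their m6A when autophagy is induced. Whether each replicate was a culture of its own is not stated in the labels.

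The names and the record of the lists disagree, which limits what can be compared. The lists were deposited under the names rapamycin-4, rapamycin-5 and rapamycin-6 and con-1, con-2 and con-3, yet the GEO record ties all 6 to libraries of untreated cells, and name and record differ for 5 of 6. The record ties rapamycin-4, rapamycin-6 and con-2 to IP libraries and rapamycin-5, con-1 and con-3 to input libraries, whereas a list of m6A peaks ordinarily rests on both kinds. The lists are called here by their given names, which are not taken as a treatment. No test of rapamycin against untreated cells was made, every value stands for 1 list, and the pair of IP and input libraries compared to make each list is not stated in the labels or the lists.

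Sestrins are stress-induced proteins that restrain mTORC1. SESN2 binds leucine and, when leucine is scarce, holds back the GATOR2 complex, and its transcription rises under several stresses. SESN1 is known as a target of p53, and SESN3 as a target of FoxO factors. FTO removes the methyl group from m6A in RNA, opposing the METTL3 and METTL14 methyltransferase. In mRNA, m6A is typically concentrated in long internal exons and around the stop codon and start of the 3′ UTR.

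An interval on SESN2 and a position on FTO reach the 5′ end of their locus. The DNA upstream of the RefSeq start of these genes is therefore shown. All 4 genes were found in the RefSeq table of GRCh38.p14, a different build from that of the lists. These bases were not placed against the intervals. They lie before the transcript start in that table, which need not be the first base of the hg19 locus. Some of them may lie under the intervals, and the SESN2 interval itself begins 75 bp before its locus. They were searched on both strands for GGACT, a common form of the m6A consensus (AGTCC on the other strand), with matches in capitals. The sequences, 5′ to 3′, are chr1:28259268-28259517 (plus) for SESN2 and chr16:53703906-53704155 (plus) for FTO.
SESN2: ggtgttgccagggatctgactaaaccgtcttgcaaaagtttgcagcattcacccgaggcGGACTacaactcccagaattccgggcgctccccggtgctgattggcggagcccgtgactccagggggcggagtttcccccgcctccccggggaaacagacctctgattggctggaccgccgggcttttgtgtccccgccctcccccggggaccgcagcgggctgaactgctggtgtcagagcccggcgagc
FTO: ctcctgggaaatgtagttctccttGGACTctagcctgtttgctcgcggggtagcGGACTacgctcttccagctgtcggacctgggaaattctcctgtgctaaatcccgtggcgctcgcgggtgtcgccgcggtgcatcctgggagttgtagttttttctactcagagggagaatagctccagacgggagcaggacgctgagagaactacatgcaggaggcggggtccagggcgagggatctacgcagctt
SESN2 held 1 match and FTO held 2, all on the sense strand. The upstream window of SESN3 held 1 match, on the other strand, and those of the 3 annotated starts of SESN1 held 0. Of the 35116 upstream windows of 250 bases in the table, 21.1% held the motif on the sense strand, 37.7% held it on either strand and 8.86% held 2 or more matches on either strand. The 50 bases after the start held no match at any of the 6 annotated starts of the 4 genes. A match of 5 letters describes the sequence and is not a site. The intervals themselves were not searched for the motif.

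The lists differed in length, from 4530 intervals in rapamycin-5 to 14908 in con-2. The rapamycin-named lists held 4530 to 4899 and the con-named lists 12040 to 14908. The authors' score, 1 value per interval, had a floor of 70 to 70.08. It was used inside its own list, as the percentage of that list's intervals with a score at or below it (the score percentile). The exceptions were fixed score values applied alike to every list, which assume a shared scale. Absence from a list is absence from the deposited intervals. Peak numbers are not consecutive, and the intervals amounted to 0.702% to 1.14% of the highest number in the rapamycin-named lists and 10.1% to 14.0% in the con-named lists. No read counts were used, so depth is unknown and no counting limit can be set. More of a transcript and more methylation of it cannot be told apart from these intervals.

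SESN2 was the only one of the 3 sestrins with more than 1 interval, and its intervals were in rapamycin-5 and rapamycin-6. Rapamycin-5 held 1, rapamycin-6 held 4, and rapamycin-4, con-1, con-2 and con-3 held none. The interval held by both lists was chr1:28607227-28609002. It was 1776 bp wide, had the same ends in both lists and stopped exactly at the 3′ end of the locus, covering 7.73% of it. Its score was 311.53 in rapamycin-5, rank 1425 of 4530 and percentile 68.6. In rapamycin-6 it was 656.56, rank 592 of 4899 and percentile 87.9. It was wide for its lists, at width percentiles of 82.2 and 83.4.

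The other 3 SESN2 intervals were in rapamycin-6 alone. At the 5′ end, chr1:28585963-28586448 began 75 bp before the locus, was 486 bp wide and scored 160.86 (percentile 48.3). Further in, chr1:28599092-28599304 lay 13054 bp from the 5′ end and was 213 bp wide. Its score of 960.43 was rank 365 of 4899 and percentile 92.6, the highest percentile of all 14 intervals. The narrowest on SESN2, chr1:28601336-28601526, was 191 bp wide and scored 84.87, percentile 13.3, near the list's floor of 70.08. One list thus carried SESN2 intervals from the start of the locus to its end, at score percentiles from 13.3 to 92.6.

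The surroundings of SESN2 were not empty in the lists that lacked it. All 6 lists held a plus-strand interval ending 21.4 kb upstream of the locus, at score percentiles of 87.7 in rapamycin-4, 96.0 in rapamycin-5, 97.4 in rapamycin-6, 89.1 in con-1, 99.5 in con-2 and 84.4 in con-3. The next interval downstream began 51.9 kb past the locus in 5 lists and 156 kb past it in rapamycin-6. Within 500 kb on either side, each list held 8 to 20 intervals outside SESN2. Between the nearest upstream and downstream intervals, the peak numbers jumped over 11 unlisted numbers in rapamycin-4, 5 in con-1, 9 in con-2 and 8 in con-3. Whether any of those unlisted numbers lay on SESN2 cannot be read from the lists. Rapamycin-5 and rapamycin-6, which held SESN2 intervals, had 9 and 38 unlisted numbers between their own nearest flanking intervals. In rapamycin-6, 3 of these were between the first and last SESN2 interval.

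**Figure D1:**
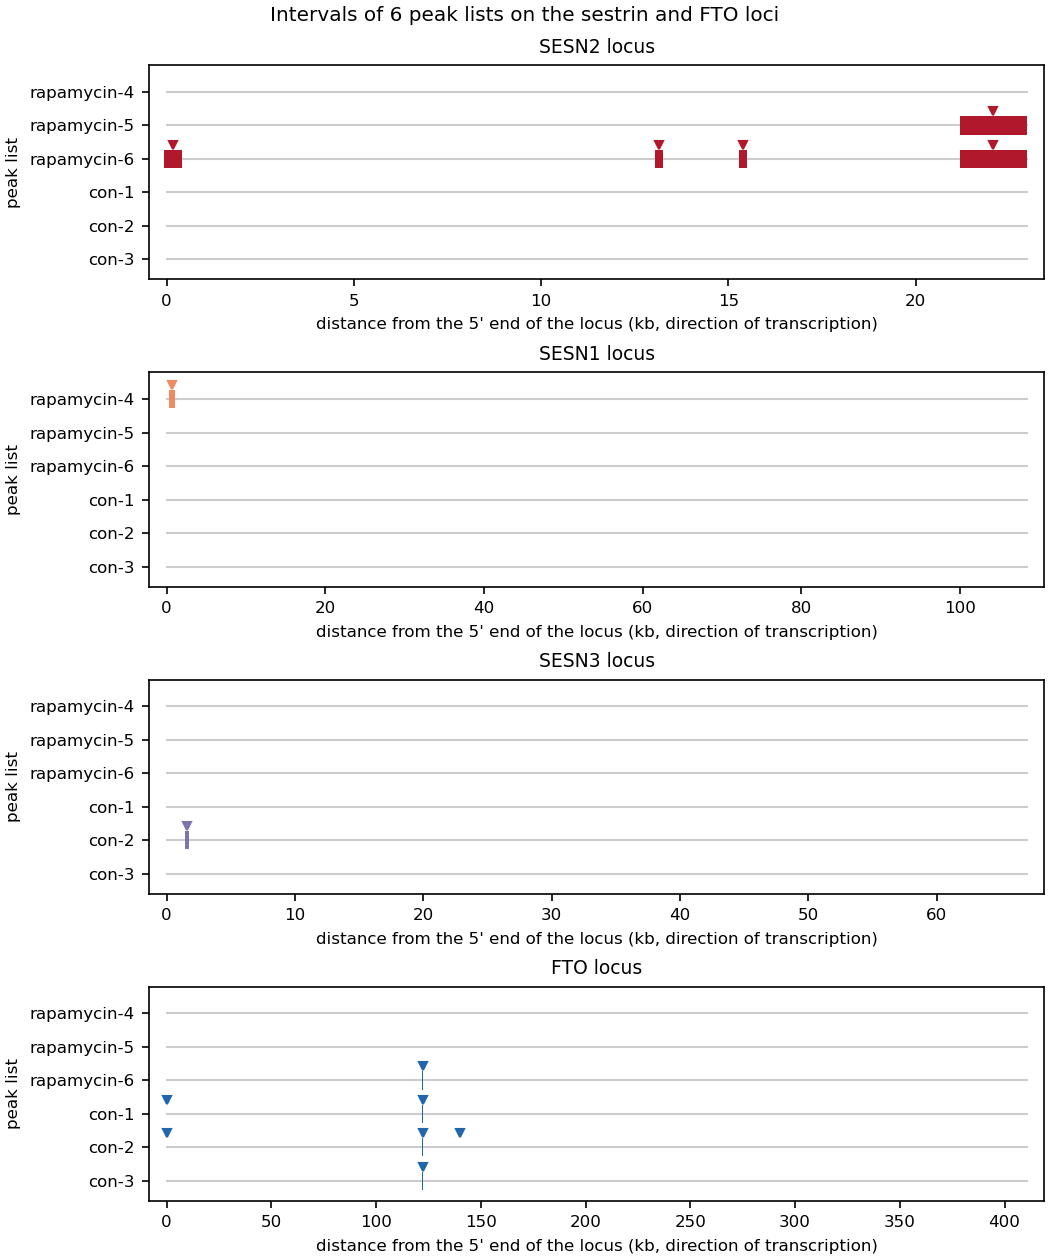
Position of each interval along the SESN2, SESN1, SESN3 and FTO loci, in kb from the 5′ end in the direction of transcription, with 1 line per peak list. Bars are drawn to scale and triangles mark their centres, since most FTO intervals are too narrow to see. SESN2 carries 4 intervals in rapamycin-6 and 1 in rapamycin-5, and the FTO interval of 628 bp recurs at one place in 4 lists.

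SESN1 and SESN3 each had 1 interval, in 1 list, close to the 5′ end of the locus. The SESN1 interval, chr6:109414998-109415708 in rapamycin-4, was 711 bp wide and began 314 bp in from the 5′ end of a locus of 108383 bp. Its score of 171.65 was rank 2621 of 4837, percentile 45.8. The SESN3 interval, chr11:94963947-94964246 in con-2, was 300 bp wide and lay 1459 bp from the 5′ end of a locus of 67003 bp. Its score of 189.03 was rank 10097 of 14908, percentile 32.3. Both stood below the middle of their lists, and the list that held the one did not hold the other.

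The stretches around SESN1 and SESN3 were sparser than that around SESN2 in each of the 6 lists. Within 500 kb of SESN1 the lists held 2 to 8 other intervals, and within 500 kb of SESN3 they held 2 to 12. No list had an interval on the opposite strand inside any of the 4 loci, so strand did not decide which genes were found.

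FTO had 7 intervals at 3 places, and was held by rapamycin-6 and by con-1, con-2 and con-3. The recurring interval was chr16:53859776-53860403, 628 bp wide with identical ends in the 4 lists, 121901 bp from the 5′ end of the locus or 29.7% of the way along it. Its score was 97.28 in rapamycin-6, 946.87 in con-1, 802.92 in con-2 and 560.39 in con-3, values of unstated scale that are not compared between lists. In score percentiles this was 21.6 in rapamycin-6, against 83.0 in con-1, 67.1 in con-2 and 61.3 in con-3. It stood low in rapamycin-6 and above the middle of each con-named list as deposited. With every list cut to its best 4530 intervals, con-2 and con-3 no longer held it, and its percentile was 15.3 in rapamycin-6 and 54.8 in con-1. With a minimum score of 260.4, the median over all lists, rapamycin-6 no longer held it, and its percentile was 64.2 in con-1, 44.2 in con-2 and 32.7 in con-3. Rapamycin-4 and rapamycin-5 held no FTO interval.

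The interval at the 5′ end of FTO, chr16:53737875-53738141, began at the first base of the locus and was 267 bp wide in both lists that held it. It scored 112.26 (percentile 21.0) in con-1 and 269.23 (percentile 42.0) in con-2. The third place, chr16:53878067-53878154, was in con-2 alone, 140192 bp from the 5′ end. It was the narrowest of all 14 intervals, at 88 bp, and scored 275.88 (percentile 42.6). No FTO interval lay in the part of the locus beyond these places, which is 65.8% of its length. In rapamycin-4 and rapamycin-5, 316 and 273 unlisted peak numbers lay between the nearest flanking intervals. Those intervals were 379 kb upstream in both lists and 817 kb and 170 kb downstream. Lists that held FTO had unlisted numbers between their flanks too: 292 in rapamycin-6, 61 in con-1, 41 in con-2 and 23 in con-3.

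**Figure D2:**
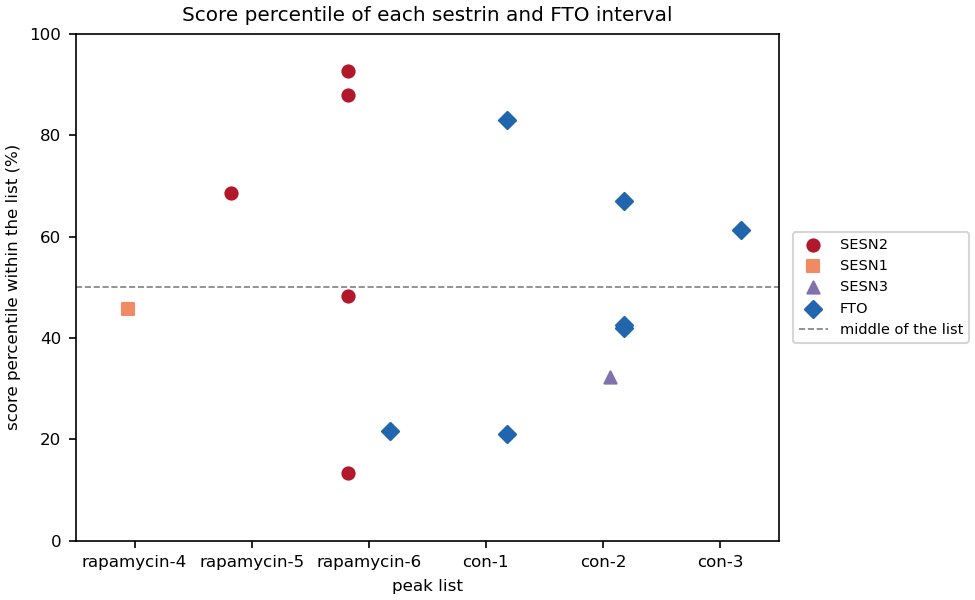
Score percentile within its own list (vertical axis, %) of each of the 14 intervals, by list. Each point is 1 interval, colour and symbol give the gene, and the dashed line is the middle of a list. SESN2 reaches 92.6 in rapamycin-6, where FTO is at 21.6, and the FTO points of the con-named lists run from 21.0 to 83.0.

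Of the 24 pairs of gene and list, 8 had an interval. Counted over genes, rapamycin-6 held 5 of the 14 intervals and rapamycin-4 and rapamycin-5 held 1 each, while con-2 held 4, con-1 held 2 and con-3 held 1. Of the 14, 8 were below the 50th percentile of their list, and a list has as many intervals below that point as above it. None reached 3100, the value at which scores pile up. Scores of 3100 or more made up 1.10% to 1.57% of intervals in the rapamycin-named lists and 3.74% to 11.8% in the con-named lists.

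Joined over lists, the 14 intervals formed 9 regions, and none was held by all 6 lists, whereas 8.30% of the 20742 regions of the series were. Of the 9, 6 occurred in 1 list, against 36.9% of all regions, and 1, on FTO, occurred in 4 or more lists, against 25.7%. The 4 SESN2 regions and the SESN1 region, 5 of 9, were in no con-named list, against 4.81% of all regions. The SESN3 region and 2 FTO regions, 3 of 9, were in no rapamycin-named list, against 61.6%. The con-named lists are the longer ones, and how far length sets these shares was not tested. The 4.81% is over all regions, including the 61.6% in no rapamycin-named list, which cannot be outside the con-named lists. All 4 SESN2 regions were in rapamycin-6, which shared 1 of them with rapamycin-5, so they are not independent of each other. The 3 regions held by several lists had identical ends in every list that held them. How often this holds over all regions of the series was not counted, so it is not read as a trait of these genes.

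Regions found in exactly the same lists gave a scale for the SESN2 interval at the 3′ end and the recurring FTO interval. The SESN2 region at the 3′ end was 1 of 50 regions held by rapamycin-5 and rapamycin-6 and no other list. Their median width was 487 bp, and 3 of the 50, with the SESN2 region among them, were as wide as 1776 bp or wider. Their median score percentile was 26.3 in rapamycin-5 and 34.8 in rapamycin-6, where SESN2 had 68.6 and 87.9. No other of the 50 was at or above SESN2 in both lists. The 50 were chosen by absence from the other lists and stood low at the median. A high place among them therefore says less than the place in the whole list, 68.6 and 87.9.

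The recurring FTO region was 1 of 464 regions held by rapamycin-6, con-1, con-2 and con-3 alone. The median score percentile of these regions was 35.8 in rapamycin-6, against 63.7 in con-1, 62.2 in con-2 and 55.8 in con-3. In 229 of them (49.4%), FTO included, the percentile in rapamycin-6 was below that in each con-named list. For FTO the lowest con-named percentile exceeded that of rapamycin-6 by 39.7 points, a gap reached by 48 of the 464 (10.3%). A lower standing in rapamycin-6 was therefore common among these 464 regions, and the FTO gap was among the wider ones. They were chosen by presence in every con-named list and absence from rapamycin-4 and rapamycin-5. How far that choice sets the lower standing was not tested. No test was made, because the lists are single and their arms are not settled.

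**Figure D3:**
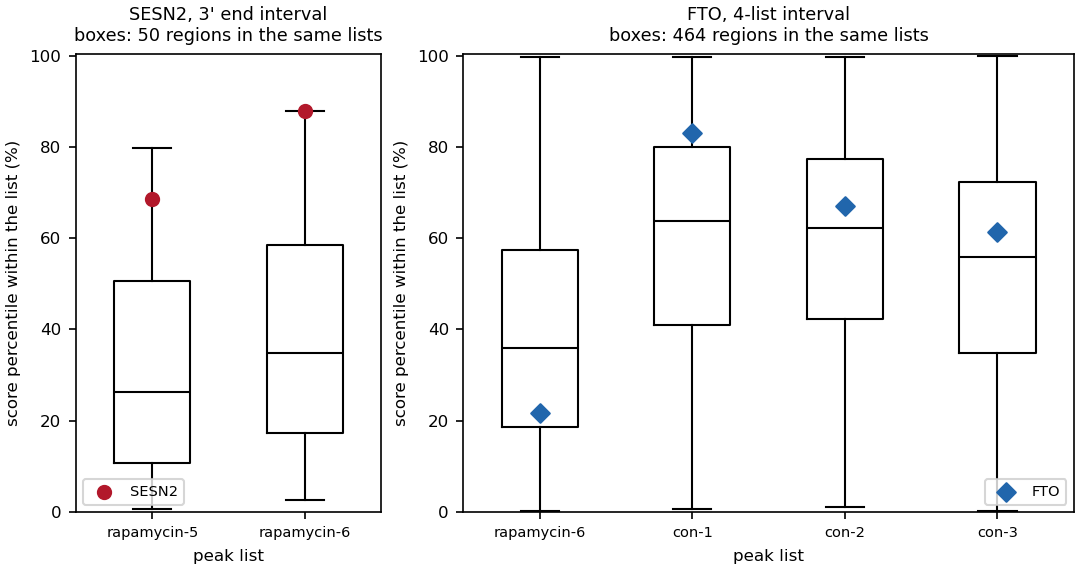
Score percentile within the list (vertical axis, %) of the SESN2 interval at the 3′ end (left) and the recurring FTO interval (right), set on boxes for all regions held by exactly the same lists, 50 at left and 464 at right. Boxes span the quartiles with the median as a line, and whiskers reach the lowest and highest region. SESN2 stands above the upper quartile in both lists, and FTO stands low in rapamycin-6 at 21.6 and above the median in con-1, con-2 and con-3.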

How the data were processed

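Each list has 6 columns (chromosome, start, end, peak name, score, strand) and no header. Per the submitters' processing notes, HISAT2 2.0.4 and the build hg19 were used. Peak names have the form given by the MACS caller, per the file contents, whose settings are not stated in the labels. The authors' deposited score is 1 value per interval, of unstated scale. It was used to rank intervals within a list, apart from fixed score values applied alike to every list. Starts are counted from 0 in the files and were written from 1.

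Intervals were assigned to a gene by the fixed locus, strand and an overlap of at least 1 bp, and joined over lists by the same overlap. The members are the 4 genes of the rule, and every interval on them is named. The members and settings were chosen with earlier results of these data known. Exons, introns, UTRs and other genes were not analysed, since no hg19 annotation was used here. The joining was checked on 2000 simulated regions, where 8 of 8 known values were recovered. Those regions lay well apart, so the merging of neighbouring intervals was not checked. Separately, counts of overlapping intervals from an overlap search equalled those of bedtools 2.31.1 in 3 of 3 pairs of lists. That comparison did not run the joining itself. Figures were drawn with matplotlib 3.10.9, and tables were made in Python 3.11.15 with numpy 2.4.6, pandas 2.3.3 and scipy 1.17.1.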

Additional observations from a re-analysis of the deposited data

How the results depend on the processing

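Ignoring strand, widening each locus by 1000 bp, asking for 50% of the interval inside the locus, counting only scores strictly below, and joining by 50% reciprocal overlap moved none of the values they were applied to beyond their limits (1.5 times for counts, the 95% Wilson interval for percentiles). A minimum at the pooled median score (260.4) removes weak intervals by construction. SESN2 then had 3 intervals in 2 regions, SESN1 and SESN3 had 0 intervals in 0 regions and 0 lists, and the best percentile became 14.8 (rapamycin-5) and 77.7 (rapamycin-6) for SESN2 and 64.2 (con-1), 44.2 (con-2) and 32.7 (con-3) for FTO. With every list cut to its best 4530 intervals, SESN3 had 0 intervals in 0 regions and 0 lists. FTO had 2 intervals in 1 region and 2 lists, with a best percentile of 15.3 in rapamycin-6 and 54.8 in con-1, and SESN1 had 42.2 in rapamycin-4. This cut raised the lowest score to 368.94 in con-1, 915.89 in con-2 and 614.61 in con-3. With each list left out in turn, lists with an interval numbered 1 to 2 for SESN2, 0 to 1 for SESN1 and SESN3 and 3 to 4 for FTO. These counts follow from which lists held each gene, so they are not a check. Joined regions numbered 1 to 4 for SESN2 (1 without rapamycin-6), 0 to 1 for SESN1 (0 without rapamycin-4), 0 to 1 for SESN3 (0 without con-2) and 2 to 3 for FTO. Regions in all lists stayed at 0 for each gene under these alternatives. No paired analysis was possible because no test was made and the lists could not be tied to arms. Depth is unknown, so a missing interval may be undetected or absent.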

Other observations

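One interval lay within 1000 bp of a locus without meeting the rule. In con-3, chr16:53737518-53737742 on the minus strand, 225 bp wide, ended 132 bp upstream of FTO, with a score of 446.61 (percentile 56.2). Con-3 held no interval at the 5′ end of FTO on the plus strand, whereas con-1 and con-2 held the 267 bp interval there and no minus-strand interval within that distance.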
